A study of Mus musculus with 6 samples.

Results

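Arrays titled replicate 2 were set against arrays titled replicate 1, once in control cells and once in cells given valproic acid (VPA), an inhibitor of class I histone deacetylases that is used against epilepsy. These are 4 of the 6 arrays of the study, and the members described here are the genes that differed by replicate number in the same direction under both treatments. In 42 of 19938 genes (0.211%) the value was at least 1.5-fold higher in replicate 2 in both treatments, and in 8 genes (0.0401%) it was at least 1.5-fold lower. The higher genes included 11 genes of the response to low oxygen and of glycolysis, such as Bnip3, Pdk1 and Slc16a3, while the lower genes included the interferon-inducible Cxcl10, Rsad2 and Cmpk2. This contrast was proposed with results of these data known, and the same values chose the genes, so all replicate differences are given as descriptions without a test and support nothing further. The members were chosen by the difference in log2 value between replicate 2 and replicate 1 in each of the 2 treatments.

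The study hybridised RNA of murine prostate cancer cells to Affymetrix mouse Gene 1.0 ST arrays, which hold probes along the whole transcript. The titles name 3 arrays "Pca control" and 3 arrays "Pca vpa", each numbered 1 to 3, and the samples are described as biological replicates. The other fields disagree with the titles: they give the control samples as differentiated embryonic stem cells of strain 129SV and the VPA samples as undifferentiated embryonic stem cells of Stra8-EGFP/Rosa26. No dose of VPA, length of treatment or line name is given in the labels used here. Groups were taken from the titles, and treatment cannot be told apart from the strain and cell type named in the other fields. No label says that arrays with the same number share a day, a passage or a batch. By the labels, a replicate number is only a name that 1 control and 1 VPA array have in common.

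Values are log2 intensities after robust multi-array averaging (RMA), so a difference of 1 is a factor of 2. Median values over all probe sets lay between 7.15 and 7.18 on the 6 arrays. Markers of embryonic stem cells were low apart from 1 gene: Pou5f1 lay between 4.99 and 5.86, Nanog between 6.08 and 6.56 and Zfp42 between 4.13 and 4.43, but Sox2 lay between 10.98 and 11.71. The 4 epithelial markers lay between 5.79 and 7.99, with Krt8 between 7.25 and 7.99 and Epcam between 5.79 and 6.17. Of the 2 prostate markers measured, the secretory gene Pbsn lay between 3.41 and 3.76 and Hoxb13 between 7.86 and 8.04. The fibroblast-associated genes differed widely: Dcn was at 13.98 to 14.13 and Pdgfra at 10.53 to 11.14. Col1a1 was at 8.18 to 8.68, Col1a2 at 7.96 to 8.50 and Lum at 4.04 to 4.24. The leukocyte marker Ptprc was at 5.31 to 5.80. RMA gives no detection call, so none of these genes can be called absent.

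Cells sense oxygen through prolyl hydroxylases, which mark the alpha subunit of hypoxia-inducible factor (HIF) for destruction when oxygen is plentiful. When oxygen is short, HIF builds up and binds DNA at a core of the letters A or G followed by CGTG, and it raises genes for glucose uptake, glycolysis, lactate export, mitophagy and collagen hydroxylation. Interferon-stimulated genes are an antiviral programme switched on by interferons, and many carry a repeated GAAA element in their promoters.

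The promoters of 6 members and of Ifit3, which fell just short of the threshold, are shown because they carry the core letters of these pathways near the start of transcription. Each line gives the 250 bases before the start in the RefSeq annotation of GRCm38.p6, 5′ to 3′ on the gene's own strand. Capitals mark a match, on either strand, of ACGTG in Bnip3, Slc16a3, P4ha1 and Egln1, and of the interferon element in Ifit3, Rsad2 and Cxcl10. That element was searched as GAAA, any 2 bases and GAAA again. Of the HIF core only the form with A was searched, so GCGTG is neither marked nor counted. On the opposite strand the motifs read CACGT and TTTC, any 2 bases and TTTC. The windows are those of Bnip3 at chr7:138909507-138909756 on the minus strand, Slc16a3 at chr11:120948817-120949066 on the plus strand, P4ha1 at chr10:59323046-59323295 on the plus strand and Egln1 at chr8:124949255-124949504 on the minus strand. Those of the interferon-inducible genes are Ifit3 at chr19:34583279-34583528 on the plus strand, Rsad2 at chr12:26456453-26456702 on the minus strand and Cxcl10 at chr5:92348890-92349139 on the minus strand.
Bnip3: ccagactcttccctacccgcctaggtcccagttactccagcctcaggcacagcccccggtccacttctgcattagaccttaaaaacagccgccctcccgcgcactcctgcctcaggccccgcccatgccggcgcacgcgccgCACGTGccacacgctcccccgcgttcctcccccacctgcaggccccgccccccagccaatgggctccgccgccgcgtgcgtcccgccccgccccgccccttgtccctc
Slc16a3: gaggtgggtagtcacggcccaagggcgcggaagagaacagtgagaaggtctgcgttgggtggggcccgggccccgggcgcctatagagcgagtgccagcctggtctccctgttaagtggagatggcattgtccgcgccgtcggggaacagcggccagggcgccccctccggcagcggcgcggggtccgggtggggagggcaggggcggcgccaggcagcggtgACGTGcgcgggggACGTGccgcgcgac
P4ha1: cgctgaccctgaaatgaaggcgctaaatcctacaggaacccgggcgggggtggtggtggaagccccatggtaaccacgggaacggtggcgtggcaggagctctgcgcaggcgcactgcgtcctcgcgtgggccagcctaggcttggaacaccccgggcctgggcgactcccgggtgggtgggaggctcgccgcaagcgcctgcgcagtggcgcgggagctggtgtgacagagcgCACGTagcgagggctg
Egln1: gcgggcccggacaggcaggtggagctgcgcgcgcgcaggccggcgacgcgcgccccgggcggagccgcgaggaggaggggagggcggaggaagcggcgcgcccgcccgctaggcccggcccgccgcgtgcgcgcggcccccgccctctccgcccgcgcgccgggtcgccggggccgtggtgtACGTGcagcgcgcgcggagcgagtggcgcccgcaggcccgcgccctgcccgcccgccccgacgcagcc
Ifit3: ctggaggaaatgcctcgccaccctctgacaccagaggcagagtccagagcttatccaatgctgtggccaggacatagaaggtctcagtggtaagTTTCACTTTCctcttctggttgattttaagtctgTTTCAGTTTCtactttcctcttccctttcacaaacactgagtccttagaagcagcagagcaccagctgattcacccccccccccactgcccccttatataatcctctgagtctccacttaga
Rsad2: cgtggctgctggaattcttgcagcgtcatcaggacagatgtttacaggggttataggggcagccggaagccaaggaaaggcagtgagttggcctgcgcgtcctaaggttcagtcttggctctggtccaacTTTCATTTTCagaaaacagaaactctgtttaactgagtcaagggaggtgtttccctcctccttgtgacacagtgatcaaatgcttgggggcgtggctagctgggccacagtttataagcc
Cxcl10: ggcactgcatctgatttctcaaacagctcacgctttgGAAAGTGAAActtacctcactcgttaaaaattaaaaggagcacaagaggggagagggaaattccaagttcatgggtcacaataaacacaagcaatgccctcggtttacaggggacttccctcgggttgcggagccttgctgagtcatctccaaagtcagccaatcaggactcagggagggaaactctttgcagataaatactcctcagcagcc

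In Bnip3 both strands match at the palindrome CACGTG, so its 2 matches overlap. Of the 19938 genes, 15614 had a promoter in the RefSeq table, and ACGTG was found within the 250 bases before a start in 3266 of them (20.9%). It was found in 23 of the 34 genes with a promoter on the hypoxia and glycolysis list (67.6%) and in 8 of the 11 list members higher in replicate 2 (72.7%). Among the higher genes outside that list the share was 4 of 21 (19%), namely 2610528A11Rik, Fam162a, Fmo2 and Tfrc. The GAAA pair was found in 531 of the 15614 genes (3.4%), in 10 of 34 interferon-stimulated genes (29.4%) and in 1 of 34 hypoxia and glycolysis genes (2.94%). Among the members it was found in 3 of 32 higher genes (9.38%), namely 2610528A11Rik, Pilra and Pilrb1, and in 2 of 7 lower genes (28.6%), namely Cxcl10 and Rsad2. A match describes letters in this window and is neither a binding site nor a cause.

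In the control pair, replicate 2 was at least 1.5-fold higher in 249 genes and lower in 104, which together are 1.77% of genes. In the VPA pair it was higher in 118 and lower in 134, together 1.26%. The median difference over all genes was -0.02 in the control pair and -0.05 in the VPA pair, so the bulk of genes stood close to 0 in both. In the 42 higher genes the mean of both differences ran from 0.61 to 1.89, with a median of 0.81, which is a factor of 1.52 to 3.72. In the 8 lower genes it ran from -1.06 to -0.66. With a lower threshold, a log2 difference of at least 0.32 in both pairs, 196 genes were higher (0.983%) and 222 lower (1.11%), and at 2-fold 7 were higher (0.0351%) and 1 lower (0.00502%).

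**Figure D1:**
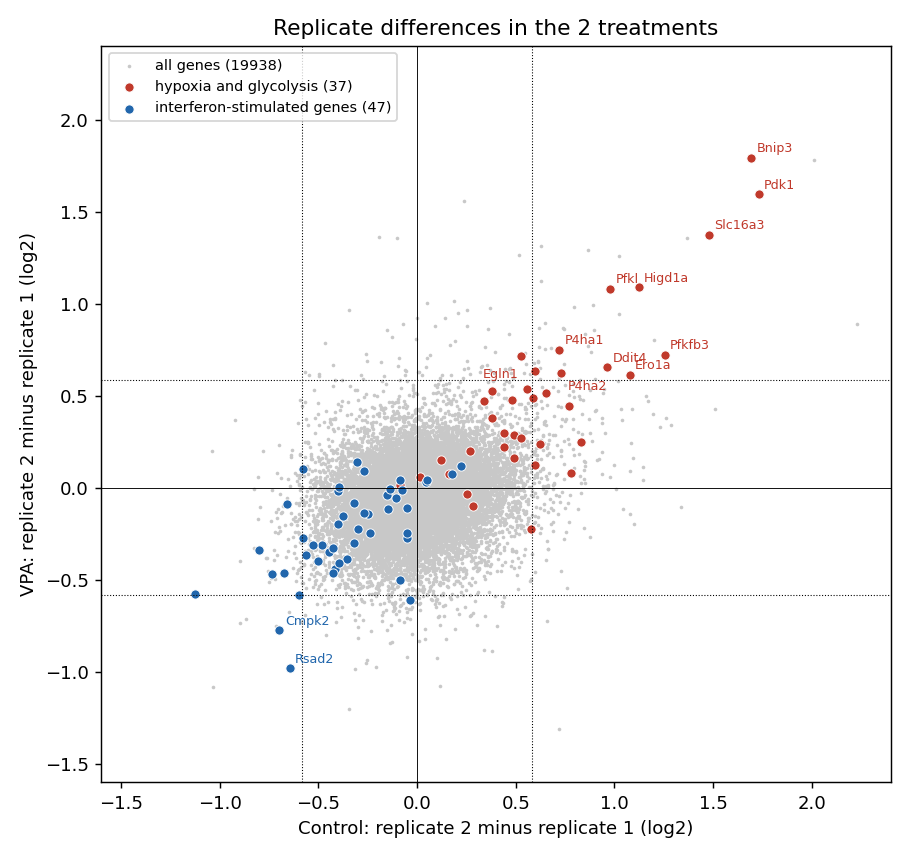
Each point is 1 gene, placed by its log2 difference of replicate 2 minus replicate 1 in control cells (x axis) and in VPA cells (y axis), with dotted lines at 1.5-fold. The 37 measured hypoxia and glycolysis genes (red) lie mostly to the upper right, where 11 are past both lines, and the 47 interferon-stimulated genes (blue) mostly to the lower left, where Rsad2 and Cmpk2 are past both.

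The hypoxia and glycolysis list held 37 measured genes, of which 11 were at least 1.5-fold higher in replicate 2 in both treatments and 0 were lower. At the lower threshold of 0.32 it was 20 higher and 0 lower, and 33 of the 37 were higher by any amount in both pairs, against 21.5% of all genes. The median difference over the list was 0.58 in the control pair and 0.44 in the VPA pair. Both replicate 2 arrays stood above the other 4 arrays in 21 of the 37 genes, against 5.43% of all genes. The list was written with earlier results of these data known, so these counts are descriptions.

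Bnip3 encodes a receptor on the outer mitochondrial membrane that directs mitochondria to autophagy. Its log2 values were 9.72, 11.41 and 10.90 in control replicates 1, 2 and 3, and 9.55, 11.34 and 10.79 in VPA replicates 1, 2 and 3. Both replicate 1 arrays were lowest, both replicate 2 arrays highest and both replicate 3 arrays in between, with no overlap between numbers. The difference of replicate 2 from replicate 1 was 1.69 in control and 1.79 in VPA cells, a mean of 1.74 ± 0.07 (SD of the 2 pair differences) or 3.35-fold. A second probe set of Bnip3 gave 1.36 and 1.66.

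Pdk1, the kinase that shuts pyruvate out of the mitochondrion by inhibiting pyruvate dehydrogenase, had values of 7.82, 9.56 and 9.14 in control cells and 8.08, 9.67 and 9.10 in VPA cells, in the order of the replicate numbers. Its mean difference was 1.66 ± 0.10, or 3.17-fold. Slc16a3, the lactate exporter MCT4, stood at 10.18, 11.66 and 11.23 in control cells and at 10.13, 11.50 and 11.29 in VPA cells. Its mean difference was 1.43 ± 0.07, or 2.69-fold. For both genes the 3 replicate numbers were again fully separate, with replicate 3 in the middle. Higd1a, a protein of the inner mitochondrial membrane induced by hypoxia, stood at 7.32, 8.44 and 8.21 in control cells and at 7.56, 8.65 and 8.41 in VPA cells. Its mean difference was 1.11 ± 0.02 (2.15-fold), and a second probe set of Higd1a gave smaller differences, 0.60 and 0.72.

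The steps of glycolysis did not all differ alike. The glucose transporter gene Slc2a1 was higher by 0.56 and 0.54 in the control and VPA pairs, and Slc2a3 by 0.62 and 0.24. For hexokinase, the first enzyme of the pathway, Hk2 was higher by 0.77 and 0.44, while Hk1 differed by 0.02 and 0.06. Hk1 stayed between 12.89 and 13.02 on all 6 arrays.

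Phosphofructokinase, the committed step, has liver, muscle and platelet isoforms. Pfkl, the liver form, stood at 10.02, 10.99 and 10.84 in control cells and 9.50, 10.58 and 10.55 in VPA cells, a mean difference of 1.03 ± 0.07 (2.04-fold). Both replicate 1 arrays were below the other 4, and replicates 2 and 3 overlapped. Pfkm differed by 0.60 and 0.12 and Pfkp by 0.83 and 0.25, so these isoforms passed 1.5-fold in the control pair but not in the VPA pair. Pfkfb3, which makes the activator fructose 2,6-bisphosphate, stood at 9.05, 10.31 and 9.59 in control cells and 9.38, 10.11 and 9.46 in VPA cells, a mean difference of 0.99 ± 0.38. Its relative Pfkfb4 differed by 0.28 and -0.10.

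In the later steps no measured gene of the list passed 1.5-fold in both pairs. The list entries Gapdh, Eno1 and Gpi1 matched no gene, so these values do not cover them. Aldoa was higher by 0.38 and 0.52, Tpi1 by 0.44 and 0.30, Pgk1 by 0.34 and 0.47 and Pgam1 by 0.53 and 0.72. Several of these enzymes have near-identical processed copies in the genome, and which copies a probe set reads was not tested. Ldha, which turns pyruvate into lactate, stood at 13.18, 13.76 and 13.52 in control cells and 13.21, 13.70 and 13.51 in VPA cells, and its replicate numbers did not overlap. Pkm, the pyruvate kinase that precedes it, differed by 0.16 and 0.08.

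Among the other HIF-linked genes, those past 1.5-fold in both pairs were Ero1a, Ddit4, P4ha1, P4ha2 and Egln1, which are named here after their values were seen. Ero1a, the oxidase that drives disulfide formation in the endoplasmic reticulum, had 12.05, 13.13 and 12.47 in control cells and 12.52, 13.13 and 12.41 in VPA cells. Replicate 2 was highest in both, and replicates 1 and 3 overlapped. Ddit4, an inhibitor of the growth kinase mTORC1, was higher by 0.96 and 0.65.

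P4ha1 and P4ha2 encode catalytic subunits of the enzyme that hydroxylates proline in collagen. P4ha1 stood at 11.63, 12.35 and 12.13 in control cells and 11.53, 12.27 and 12.01 in VPA cells, a mean difference of 0.73 ± 0.02, and P4ha2 was higher by 0.73 and 0.62. Egln1, the main oxygen-sensing prolyl hydroxylase and itself a HIF target, had 9.95, 10.55 and 10.47 in control cells and 9.80, 10.44 and 10.09 in VPA cells. Both replicate 1 arrays were lowest for P4ha1, P4ha2 and Egln1.

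Other list members stayed short of the threshold. Vegfa, the angiogenic growth factor, was higher by 0.65 and 0.51, and Adm, which encodes adrenomedullin, by 0.48 and 0.47. The genes without the same direction in both pairs were Car9 (-0.08 and 0.01), Egln3 (0.25 and -0.03), Pfkfb4 and Ndrg1 (0.58 and -0.23). The carbonic anhydrase gene Car9 lay between 5.94 and 6.29 on the 6 arrays, and Egln3, a further prolyl hydroxylase, between 5.68 and 6.31.

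**Figure D2:**
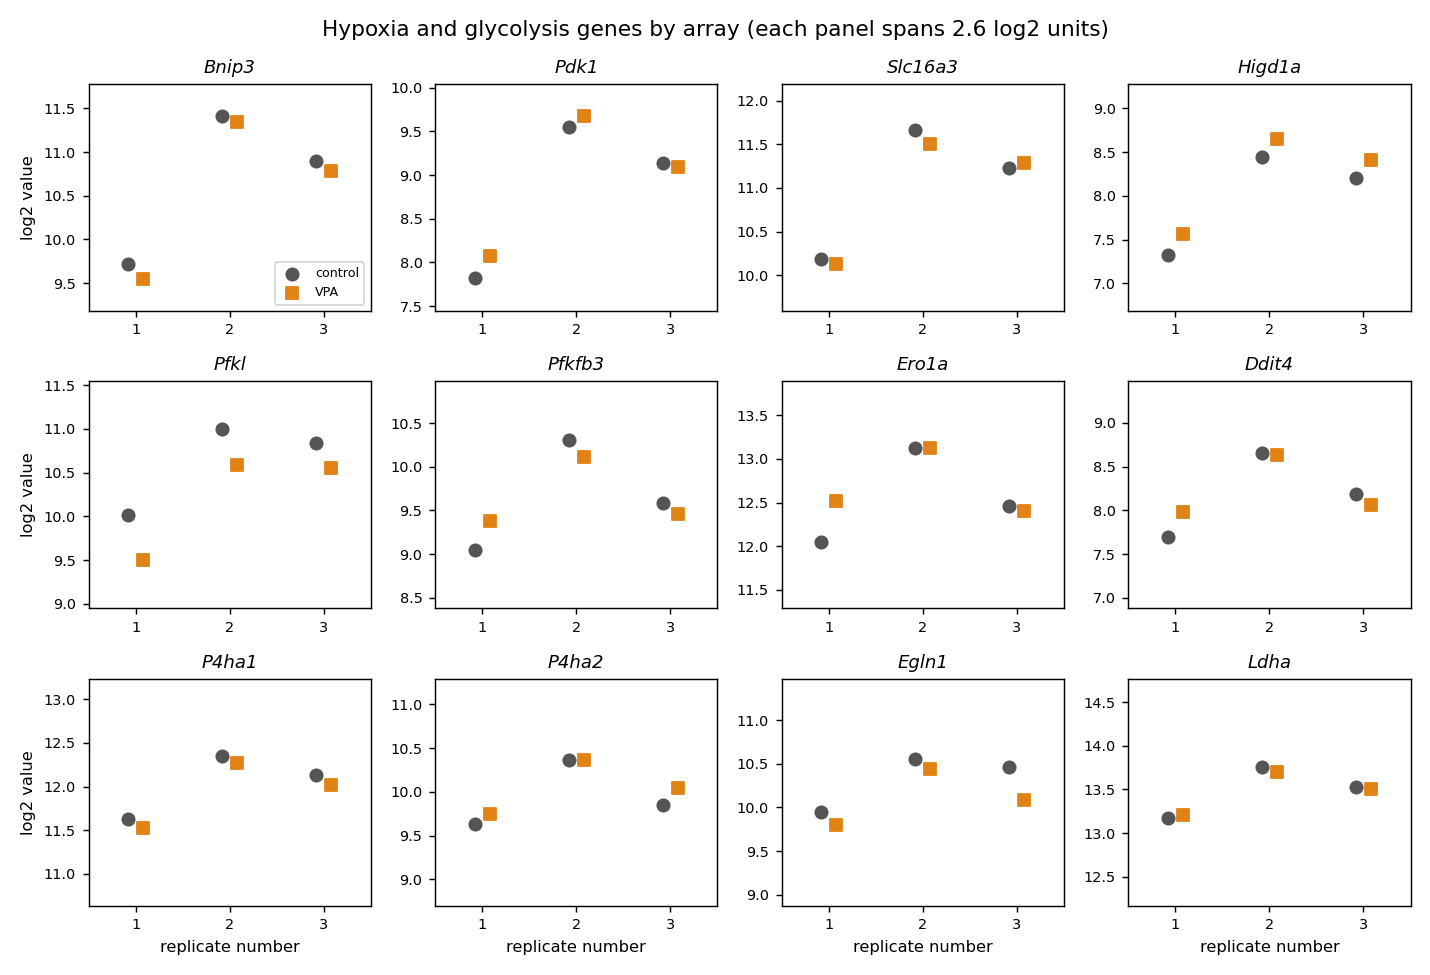
Log2 values on each of the 6 arrays for the 11 hypoxia and glycolysis genes higher in replicate 2 and for Ldha, by replicate number (x axis), with control cells as circles and VPA cells as squares. Both replicate 2 points lie above both replicate 1 points in all 12 panels. Replicate 3 lies between them without overlap in all panels except those of Pfkl, Ero1a and Egln1.

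Of the 42 higher genes, 31 were on none of the lists examined. Ppp1r3a, the subunit that brings protein phosphatase 1 to glycogen, stood at 8.07, 9.44 and 9.14 in control cells and 7.62, 8.98 and 8.79 in VPA cells, a mean difference of 1.36 ± 0.01 (2.57-fold). Gys1, the muscle form of glycogen synthase, which that phosphatase activates, was higher by 0.88 and 0.74. For both genes replicate 1 was lowest under either treatment.

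Pilra, an inhibitory receptor of the immunoglobulin superfamily, stood at 9.08, 10.10 and 10.50 in control replicates 1, 2 and 3 and was higher in VPA replicate 2 than in VPA replicate 1, at 8.74, by 1.26. Here replicate 3 and not replicate 2 was highest, also with VPA (10.45). Its activating partner Pilrb1 was higher in replicate 2 by 0.63 and 1.31. Because these receptors are known from myeloid cells, the leukocyte markers are given beside them: the mean of the 17 measured genes on each array lay between -0.06 and 0.07 around its mean over the 6 arrays, with Ptprc between 5.31 and 5.80, Csf1r between 6.12 and 6.38 and Cd68 between 7.94 and 8.82. Cd14 was the list's 1 member past the log2 threshold of 0.32, higher in replicate 2 by 0.49 and 0.60. Their part in the result was not tested, and in bulk RNA fewer cells of a type and less RNA per cell cannot be told apart.

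Fam162a, a mitochondrial protein known as a hypoxia-induced gene, was higher by 0.86 and 1.29. Tnfsf9, the ligand of the T cell receptor 4-1BB, was higher by 1.02 and 0.94, and Fmo2, a flavin-containing monooxygenase, by 0.89 and 0.99. Fmo2 stood at 12.38, 13.27 and 11.86 in control cells and 11.54, 12.53 and 11.19 in VPA cells, so replicate 3 was below replicate 1 within each treatment. The largest difference of all was in 2610528A11Rik, named after its values were seen, with 10.35, 12.36 and 11.11 in control cells and 9.86, 11.64 and 10.96 in VPA cells. Its mean difference was 1.89 ± 0.16, or 3.72-fold.

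Ivl, which encodes the cornified-envelope protein involucrin, was higher by 0.90 and 0.86, and Spink13, a Kazal-type protease inhibitor, by 0.80 and 0.98. Ccdc152 differed most unevenly, by 2.23 in the control pair and 0.89 in the VPA pair (mean 1.56 ± 0.95). Nrn1, which encodes neuritin, stood at 8.74, 9.58 and 8.32 in control cells and 9.41, 10.24 and 8.61 in VPA cells. Adgrf5, an adhesion G protein-coupled receptor, was higher by 1.20 and 0.80, and its replicate 3 arrays, at 5.95 and 5.93, were lowest of all. The 2 members nearest the threshold inside it were Cdhr1 and Tfrc, each with a smaller difference of 0.59. Just outside it were Smr2 (0.83 and 0.58) and Milr1 (1.02 and 0.58).

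The replicate 3 arrays took no part in choosing the members, but a comparison with them shares the replicate 1 or replicate 2 arrays, so it is also a description. Both replicate 3 arrays were above both replicate 1 arrays in 25 of the 42 higher genes, below them in 6 and overlapping in 11. Over all genes the shares above and below were 11.9% and 14.5%. The 6 genes with replicate 3 lowest were Ccdc152, Nrn1, Adgrf5, Cdh19, Il13ra2 and Klk8. Replicate 3 was below replicate 2 in 30 of the 42 and above it in 3, namely Pilra, Ccdc68 and Tecrl. The members were chosen for high replicate 2 values, and no share over all genes is given for replicate 3 against replicate 2. Those counts therefore cannot be read against a background. On the hypoxia and glycolysis list as a whole, replicate 3 was above replicate 1 in 24 of 37 genes and below it in 1. The list's mean, relative to its mean over the 6 arrays, was -0.35, 0.30 and 0.01 in control replicates 1, 2 and 3 and -0.23, 0.25 and 0.02 in VPA replicates 1, 2 and 3.

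The interferon-stimulated list held 47 measured genes, of which 2 were at least 1.5-fold lower in replicate 2 in both treatments and 0 were higher. At the threshold of 0.32, 15 were lower and 0 higher, and 38 of the 47 were lower by any amount in both pairs, against 37.0% of all genes. The list's median difference was -0.36 in the control pair and -0.24 in the VPA pair. Both replicate 2 arrays were below the other 4 in 20 of the 47 genes, against 12.4% of all genes. Replicate 3 was below replicate 1 in 12 of the 47 and above it in 1, against 14.5% and 11.9% of all genes. Among the 8 lower members it was below replicate 1 in 6, Rsad2 and Cmpk2 included, overlapping in 1 and above in 1.

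Cxcl10, a chemokine that draws T cells and is induced by interferons, stood at 11.53, 10.63 and 10.89 in control cells and 11.77, 11.04 and 10.74 in VPA cells. Both replicate 1 arrays were highest, and replicates 2 and 3 overlapped. Its differences were -0.90 and -0.74, a mean of -0.82 ± 0.11. Rsad2, which encodes the antiviral enzyme viperin, had 10.43, 9.78 and 10.14 in control cells and 10.85, 9.87 and 10.08 in VPA cells, with a mean difference of -0.81 ± 0.24. Cmpk2, a mitochondrial nucleotide kinase, had 10.49, 9.80 and 10.49 in control cells and 10.56, 9.79 and 10.11 in VPA cells, with a mean difference of -0.74 ± 0.05. Both replicate 2 arrays were lowest for Rsad2 and Cmpk2.

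The 2 genes just outside the threshold were Ifit3 and Samd9l, both on this list. Ifit3, which belongs to a family of RNA-binding antiviral proteins, had 9.79, 8.66 and 9.54 in control cells and 8.58, 8.0 and 8.80 in VPA cells, with differences of -1.13 and -0.58. Samd9l, an antiviral restriction factor, differed by -0.60 and -0.58. Further from it, the deISGylating protease Usp18 differed by -0.74 and -0.47, Ifit1 by -0.80 and -0.34, and the oligoadenylate synthetase family members Oasl1 and Oas2 by -0.68 and -0.46 and by -0.43 and -0.46. The transcription factor subunits Stat2 and Irf9 differed by -0.36 and -0.39 and by -0.38 and -0.16. Not all members shared the direction: Mx1 differed by -0.58 and 0.10, and Ifitm2, Ifi27, Sp100 and Lgals3bp were higher in both pairs, by at most 0.22 in either.

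**Figure D3:**
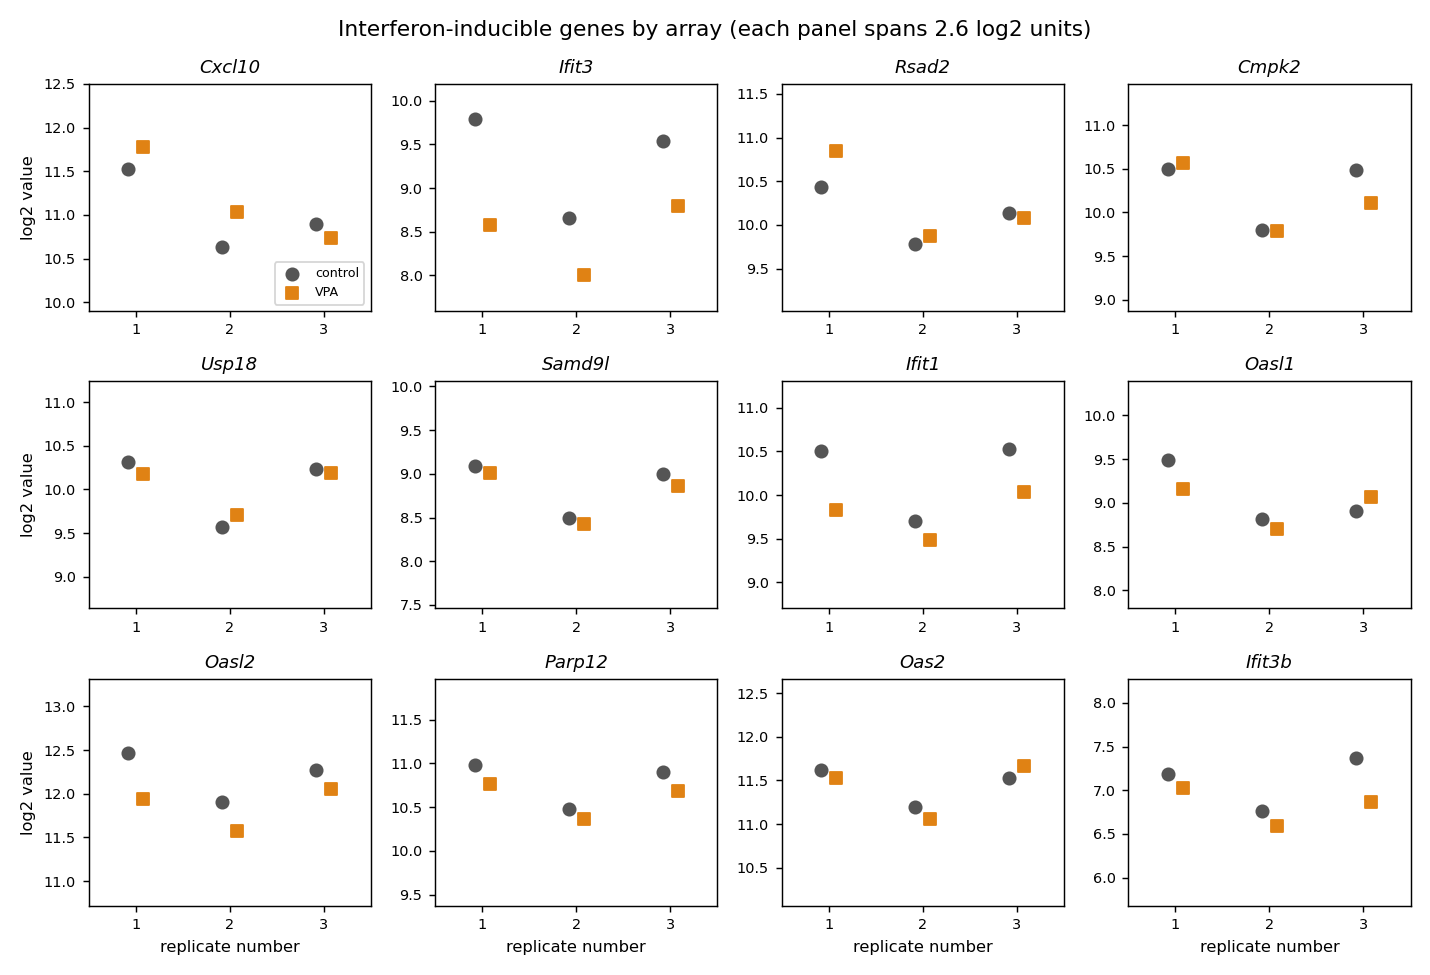
Log2 values on each of the 6 arrays for Cxcl10 and for the 11 interferon-stimulated genes with the lowest mean difference among those past the lower threshold, by replicate number (x axis), with control cells as circles and VPA cells as squares. Within each treatment the replicate 2 point is below the replicate 1 point in all 12 panels, and for Ifit1 and Usp18 replicate 3 lies near replicate 1.

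Related lists differed less. Among 16 interferon-gamma-inducible genes only Cxcl10 was past 1.5-fold, and the list's medians were -0.21 and -0.14 in the control and VPA pairs. Among 19 genes of MHC class I antigen presentation 0 were past even the lower threshold, with medians of -0.11 and -0.06. Of the 24 genes on the chemokine list, which holds neither Cxcl10 nor Ccl9, 1 was higher and 2 lower at that threshold. Ccl9 was past 1.5-fold, higher by 0.65 in the control pair and 0.90 in the VPA pair.

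Kdr, the VEGF receptor found on endothelium, stood at 9.19, 8.60 and 8.49 in control cells and 9.50, 8.77 and 8.89 in VPA cells, with differences of -0.59 and -0.73. Both replicate 1 arrays were highest, and replicates 2 and 3 overlapped. Of 12 endothelial markers 10 were lower in replicate 2 in both pairs, against 37.0% of all genes. Their medians were -0.16 and -0.11, against -0.02 and -0.05 over all genes. The list's mean level was 6.69, and the 3861 genes with a mean between 6 and 7 had medians of -0.11 and -0.11. Only Kdr was past the threshold of 0.32. The endothelial genes Pecam1 and Cdh5 lay between 5.91 and 6.26 and between 5.85 and 6.14. The part of other cells in the Kdr difference was not tested.

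The other lower genes were Usp17ld, a deubiquitinase (-0.87 and -0.71), Prpmp5 (-0.72 and -0.75) and, outside the naming rule, the microRNA gene Mir15b (-1.04 and -1.08) and the vomeronasal receptor gene Vmn1r30 (-0.65 and -0.67). Usp17ld had replicate 3 highest under both treatments, at 10.22 against 9.56 in replicate 1 of the control cells. Prpmp5 and Vmn1r30 had means over the 6 arrays of 3.94 and 3.22, in the lowest part of the scale, where no detection call exists. The Mir15b probe set reads the gene's transcript and not the mature microRNA.

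Of the 38 lists examined, 34 had no member past 1.5-fold in both pairs and 22 had none past a log2 difference of 0.32. The circadian list had 2 genes past the latter, the transcriptional repressors Bhlhe40 (1.29 and 0.34) and Bhlhe41 (0.83 and 0.40), both also known to respond to hypoxia. Immediate early genes differed both ways, since Fosb (1.16 and 0.50), Fos, Fosl1 and Klf10 were past it higher and Nr4a1 (-0.32 and -0.61) lower. For sterol and fatty acid synthesis the median was 0.27 in the control pair and 0.01 in the VPA pair. Mitosis genes had medians of -0.15 and 0.03, and cytosolic ribosomal proteins -0.11 and 0.13, so these lists had opposite signs in the 2 treatments. The difference between treatments was not tested, because each pair is 1 array against 1 array.

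**Figure D4:**
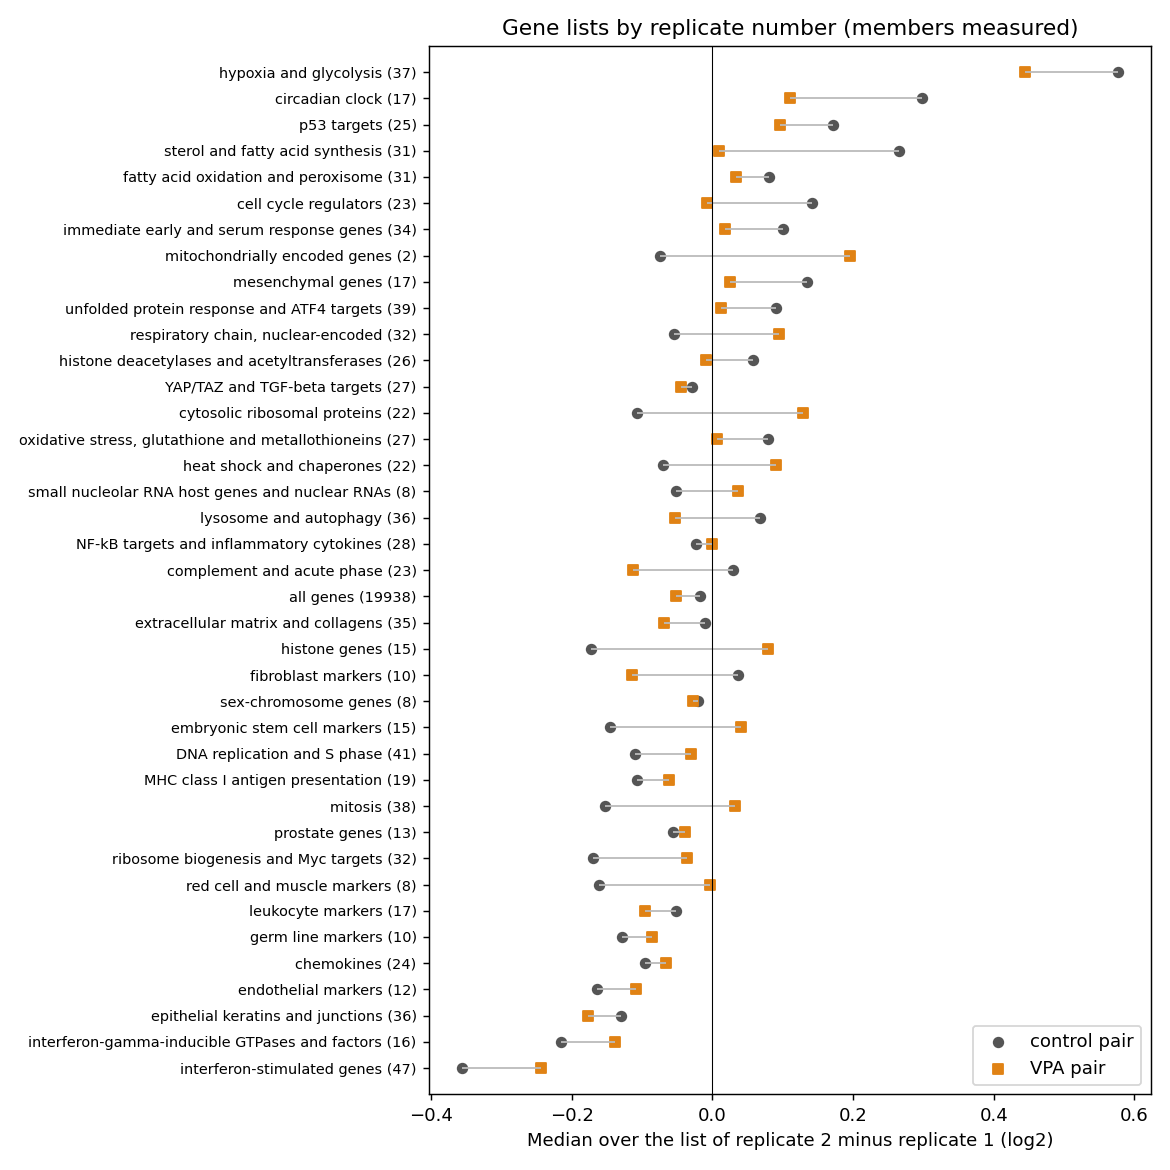
Median log2 difference of replicate 2 minus replicate 1 over each of 38 gene lists and over all genes, in the control pair (circles) and the VPA pair (squares), with the number of measured genes in brackets. The hypoxia and glycolysis list is highest in both pairs, at 0.58 and 0.44, and the interferon-stimulated list is lowest in both, at -0.36 and -0.24.

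With treatment as a second term, limma on the 4 arrays put 76 genes higher (0.381%) and 18 lower (0.0903%) at an adjusted p under 0.05, with 1 residual degree of freedom per gene. All 42 higher and all 8 lower members were among them. The standard error of that fit was 0.11 for Bnip3, Pdk1, Slc16a3 and Cxcl10 and 0.22 for Ccdc152. These calls use the values that chose the members and are given as a description.

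The comparison of VPA with control is a separate contrast. In limma over the 6 arrays, 341 genes were higher with VPA (1.71%) and 126 lower (0.632%) at an adjusted p under 0.05, together 2.34%. Single arrays moved these counts. They were 15 higher and 5 lower without control replicate 1, and 53 and 18 without control replicate 3. Leaving out control replicate 2 moved them less, to 422 and 93. Leaving out a VPA array gave 54 higher and 12 lower for number 1, 59 and 13 for number 2, and 595 and 220 for number 3. Against these 2.34%, 0 of the 50 members were called by limma. Over all 19938 genes limma gave 3611 an unadjusted p under 0.05, and among the members it gave 4, namely Itprid1, Gm6020, Aldh3a1 and Tmem100. The spread within each group holds the replicate difference that chose the members, so these counts say nothing about whether VPA acted on them. Differences of VPA from control ran from -0.75 to 0.93 over the higher genes and from -0.14 to 0.29 over the lower. On the hypoxia and glycolysis list limma called 0 of 37 genes, with 3 at an unadjusted p under 0.05. On the interferon-stimulated list limma called 3 of 47, namely Parp9, Parp14 and Zbp1, all lower with VPA. There 15 of the 47 had an unadjusted p under 0.05.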

How the data were processed

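Total RNA of 6 samples was extracted with Trizol, treated with DNase I and labelled with biotin from 300 ng, per the labels' protocols. Per the submitters' processing notes, the authors used Affymetrix Expression Console and RMA, and the deposited values are log2 intensities. No version or genome build is named there. RMA includes quantile normalization, which can hide a shift of most genes, but the deposited gene values still differed in distribution, with 10th percentiles of 4.98 to 5.18. The 6 arrays limit the precision, and p-values measure only the spread between these samples.

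Of 35556 probe sets, 21789 carried exactly 1 symbol in the platform annotation, 1621 several and 12146 none listed. An Entrez match to GRCm38.p6 covered 21698 and changed 0 symbols. For each gene the probe set with the highest mean was kept, giving 19938 genes. Of 1040 list entries 908 matched a gene. Replicate differences were taken within each treatment, with SDs over the 2 pairs. An exact test of 2 arrays against 2 within treatment cannot go below p = 0.5. limma 3.58.1 in R 4.3.3 was used with two-sided Benjamini-Hochberg adjusted p-values, and was tested on simulated data.

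The members and lists were chosen with earlier results of these data known. In each direction the 15 members with the largest smaller difference were named, without predicted genes, receptors of smell and small RNAs, along with up to 4 per list, the opposite-signed genes, marker genes and genes at the threshold. The values of every other gene named were seen first. Alternatives were other normalizations, folds, filters and adjusted p-values, all probe sets, probe sets averaged by gene, a 6-array fit, a robust prior with intensity trend, replicate number as a block, and leaving out arrays. Probe sets with several symbols or none named no gene.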

Additional observations from a re-analysis of the deposited data

Results flagged for a closer look

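Only 2 genes were past 1.5-fold in both pairs with opposite signs, and both were higher in replicate 2 in control cells and lower in replicate 2 in VPA cells. In control cells Gm773 stood at 6.12 in replicate 1 and 6.78 in replicate 2. In VPA cells it stood at 7.93 in replicate 1 and 7.21 in replicate 2. Its pair differences were 0.66 and -0.72, so the VPA pair differed from the control pair by -1.38. The vomeronasal receptor gene Vmn1r176 stood at 3.95 and 4.66 in control cells and at 5.18 and 3.87 in VPA cells. Its pair differences were 0.72 and -1.31, and the VPA pair differed from the control pair by -2.03. In neither gene was the difference between treatments tested, because a pair is 1 array against 1 array and no spread is left for an interaction. Genes past the fold with opposite signs the other way round numbered 0.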

How the results depend on the processing

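For the 50 members the direction was the same in all 400 alternatives. Leaving out 1 array returns the other pair's difference, whose sign the choice of members fixes. For the members those alternatives therefore show no stability. Other named genes did reverse. The mean difference of Krt8 was -0.06 and became 0.33 without a control array. That of Zfp42 was -0.02 and became 0.05 after cyclic loess. Of the 42 higher genes 33 were shared after a second quantile normalization and 37 after cyclic loess, and of the 8 lower genes 8 under both. The count of higher genes was 319 over all probe sets, 7 at 2-fold, 196 at the log2 threshold of 0.32 and 76 by limma, and 118 without either control array or 249 without either VPA array, when only 1 pair remained. The count of lower genes was 5 with a mean of at least 6, 73 over all probe sets, 1 at 2-fold, 222 at 0.32, 18 by limma and 134 without a control array or 104 without a VPA array. The hypoxia and glycolysis count was 20 at 0.32 and 12 without a control array or 18 without a VPA array, with medians of 0.44 and 0.58. The interferon-stimulated count was 15 at 0.32 and 3 without a control array or 8 without a VPA array, with medians of -0.24 and -0.36. Looser or stricter thresholds, other features or fewer arrays set these counts by construction.

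For limma's replicate contrast, the 76 higher calls became 36 with arrays centred on their medians, 21 at an adjusted p under 0.01, 122 with an intensity trend and 16 over 6 arrays, with 10 to 281 when 1 of the 6 was left out. The 18 lower calls became 10 after a second quantile normalization or cyclic loess, 7 with centring, 3 at 0.01, 41 with the trend and 1 over 6 arrays, with 0 to 98 when 1 was left out (79 without control replicate 1). Over all probe sets limma made 0 calls in either direction, with 3253 at an unadjusted p under 0.05. The cause was not tested.

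With the replicate number as a block, VPA calls over all 19938 genes were 827 higher and 372 lower. Among the calls were 13 of the 50 members, 2 of the 37 hypoxia and glycolysis genes (Pfkl and Pfkp) and 12 of the 47 interferon-stimulated genes. The members were chosen by values that enter this fit, so their count is a description. The deviations of same-numbered arrays correlated at 0.0841, 0.451 and 0.284 for numbers 1, 2 and 3. Control replicate 1 correlated best with VPA replicate 3 (0.200), while every other array correlated best with its own number. No label says what same-numbered arrays share. Without both arrays of replicate 1 the calls were 2 higher and 0 lower (limma, 1831 at an unadjusted p under 0.05). Without both of replicate 2 they were 0 and 0 (2912 unadjusted), and without both of replicate 3 they were 225 and 83. Leaving out 1 array gave 15 to 595 higher and 5 to 220 lower. Signal over background is unknown, which limits values at the low end of the scale.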

Other observations

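At a log2 difference of at least 0.32 in both treatments, 222 genes were lower and 196 higher in replicate 2. A mean value below 6 was found in 114 of the lower genes (51.4%) and in 24 of the higher ones (12.2%), against 22.4% of all genes. Olfactory or vomeronasal receptor genes numbered 37 of the lower (16.7%) and 6 of the higher genes (3.06%), against 5.99% of all genes. MicroRNA genes numbered 15 of the lower (6.76%) and 0 of the higher genes, against 1.49% of all. Genes with a mean between 5 and 6 had a median difference of -0.11 in the control pair and -0.12 in the VPA pair, while genes with a mean between 8 and 10 had 0.06 and -0.01. The 10th percentile of the gene values was lower in replicate 2 than in replicate 1 under both treatments, at 5.06 against 5.15 in control cells and at 4.98 against 5.11 in VPA cells.

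Probe sets with several symbols or none were not part of the gene counts. Of these 13767 probe sets, 272 (1.98%) were at least 1.5-fold higher in replicate 2 in both treatments and 64 (0.465%) lower.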
